A study of Homo sapiens with 6 samples.

Results

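The plasma carrier genes described here encode 10 secreted liver proteins, most of which bind hormones, vitamins, fatty acids or minerals in blood. They were taken by symbol, through their Entrez identifiers, and all 10 of 10 were found among the 18030 genes of the deposited tables. RNA was profiled from Huh-7, a human hepatocellular carcinoma line grown in culture, with 3 libraries from cells that overexpress ALKBH5 (oeALKBH5) and 3 from control cells labelled wild type. ALKBH5 is an enzyme that removes the N6-methyladenosine mark from RNA. Per the labels' protocols, an ALKBH5 plasmid was brought in by electroporation (1250 V, 20 ms, 3 pulses) and cells were collected 60 h later, and the share of cells that took up the plasmid is not stated. That text stands beside the control samples too, and the sources used here do not say whether controls were pulsed or given an empty plasmid. The labels number the libraries as biological replicates without mention of separate transfections, and the p-values below then reflect only library-to-library spread, which may be technical.

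Albumin (ALB) is the most abundant protein of adult plasma and carries fatty acids, bilirubin, hormones and many drugs. Its relatives are alpha-fetoprotein (AFP), the fetal counterpart that many liver cancers make again, afamin (AFM), which binds vitamin E, and the vitamin D-binding protein (GC). Transthyretin (TTR) carries thyroxine and also docks retinol-binding protein (RBP4), which brings retinol out of the liver. AHSG and FETUB encode the fetuins: fetuin-A keeps calcium phosphate in solution and fetuin-B inhibits a protease of the egg. SERPINA6 and SERPINA7 encode the serpins that carry cortisol and thyroxine and do not act as protease inhibitors.

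In GENCODE release 29 on GRCh38, all 10 are protein-coding genes. ALB (73397114 to 73421412), AFP (73431138 to 73456174) and AFM (73481683 to 73504001) follow each other on the plus strand of chromosome 4, and GC lies on the minus strand of the same chromosome at 71741693 to 71804041. AHSG (186612923 to 186621318) and FETUB (186635969 to 186653141) are neighbours on the plus strand of chromosome 3. RBP4 lies on chromosome 10 at 93591687 to 93601744, minus strand, and TTR on chromosome 18 at 31557010 to 31599021, plus strand. SERPINA6 is on chromosome 14 at 94304248 to 94323394 and SERPINA7 on chromosome X at 106032442 to 106038738, both on the minus strand. The transcripts matched for ALB, AFP and AFM each have 15 exons, and the one matched for GC has 13.

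The TATA box, found a short way before the start of many strongly expressed genes, is read by the TATA-binding protein when transcription starts. The 250 bases before the RefSeq start (GRCh38.p14) are shown for a pair of genes that fell, ALB and AFP, for the cortisol carrier SERPINA6, which fell less, and for SERPINA7, which rose. Capitals mark TATAAA or its reverse complement TTTATA, where present. The windows are chr4:73404037-73404286 (ALB, plus strand), chr4:73435971-73436220 (AFP, plus strand), chr14:94323337-94323586 (SERPINA6, minus strand) and chrX:106038728-106038977 (SERPINA7, minus strand). The RefSeq starts differ from the GENCODE gene starts above, and the ALB and AFP windows lie inside the gene spans given there.
ALB: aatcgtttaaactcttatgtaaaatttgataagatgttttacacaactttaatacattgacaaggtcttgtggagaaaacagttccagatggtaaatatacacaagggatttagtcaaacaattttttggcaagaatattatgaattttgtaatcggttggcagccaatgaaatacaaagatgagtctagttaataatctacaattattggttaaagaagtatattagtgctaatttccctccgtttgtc
AFP: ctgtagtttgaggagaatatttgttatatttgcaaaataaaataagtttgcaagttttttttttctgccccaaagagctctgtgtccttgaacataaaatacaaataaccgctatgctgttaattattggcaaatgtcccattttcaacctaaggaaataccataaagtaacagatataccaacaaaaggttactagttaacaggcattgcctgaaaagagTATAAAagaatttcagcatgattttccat
SERPINA6: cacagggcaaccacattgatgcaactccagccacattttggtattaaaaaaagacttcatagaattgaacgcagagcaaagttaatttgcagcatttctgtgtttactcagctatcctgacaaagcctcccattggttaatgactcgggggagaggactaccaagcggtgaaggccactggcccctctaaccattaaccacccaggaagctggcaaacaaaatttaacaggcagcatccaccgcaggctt
SERPINA7: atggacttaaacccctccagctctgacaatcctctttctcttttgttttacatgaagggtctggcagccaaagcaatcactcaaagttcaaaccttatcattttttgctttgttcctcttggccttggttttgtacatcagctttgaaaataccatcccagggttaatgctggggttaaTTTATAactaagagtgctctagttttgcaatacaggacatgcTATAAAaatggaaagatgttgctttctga

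Promoter sequences were found for 8 of the 10 genes, and 5 of those held the TATAAA letters on either strand in at least 1 window: AFP, AFM, FETUB, RBP4 and SERPINA7. The first base of a match lay at -29 in AFP and SERPINA7, at -30 in AFM and FETUB and at -31 in RBP4, counted from -1 for the base just before the start. SERPINA7 held a further match at -71, and another RBP4 window held 2 overlapping matches at -227 and -225. ALB, SERPINA6 and AHSG held 0 matches in these windows. Only these exact letters were searched, so a window without them may still hold a TATA box in other letters. Of all 35116 windows of this length, 10.7% held the letters on either strand, as did 6.58% of the 16764 windows of genes tested below. These shares are per window, while the 5 of 8 above is per gene. Genes with several windows, such as RBP4 and FETUB, have more chances of a match. The letters thus stood before AFP, which fell, and before SERPINA7, which rose. A match in letters is a description and not a binding site.

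Depth per library was 18607084 to 18826479 estimated counts for oeALKBH5 and 19265686 to 19378030 for control cells. ALKBH5 mRNA itself was at 169, 133 and 110 CPM (counts scaled to a fixed library size, with TMM between libraries) in oeALKBH5 and at 70.5, 74.2 and 75.5 CPM in control (log2 fold change 0.90, SE 0.177, edgeR adjusted p = 0.0154). As a check of the line, 8 of 8 hepatocyte markers were tested and 8 fell, beside 22% of all genes tested. Their summed levels were 12382 to 12710 CPM in oeALKBH5 and 17031 to 17258 CPM in control. With library size alone 7 fell, as APOB lost its call (edgeR adjusted p = 0.104). TF and SERPINA1 of this list are counted again in lists below. In bulk RNA, fewer cells making a transcript and less of it per cell cannot be told apart. In level, stellate, endothelial and most immune markers were low in both groups, while CD68, EPCAM, KRT19, SOX9 and SPP1 stood higher. Of 6 stellate genes 4 were tested, with sums of 28.8 to 29.5 CPM in oeALKBH5 and 21.0 to 22.7 CPM in control. Of these, the collagen genes COL1A2 (12.8 ± 0.544 CPM in oeALKBH5 cells, against 6.74 ± 0.684 CPM in control cells, SD, n = 3 each, log2 fold change 0.92, edgeR adjusted p = 6.61e-07) and COL1A1 (4.32 ± 0.493 CPM in oeALKBH5 cells, against 2.05 ± 0.948 CPM in control cells, log2 fold change 1.07, adjusted p = 0.00239) rose, and PDGFRB and COL3A1 were not called. DCN, which was not tested, was at 0 to 0.01 FPKM in oeALKBH5 and at 0.01 to 0.08 FPKM in control. Of 6 endothelial markers 1 was tested, PECAM1, with 10.6 to 11.5 CPM in oeALKBH5 and 16.8 to 20.3 CPM in control. PECAM1 fell (log2 fold change -0.70, edgeR adjusted p = 3.81e-06). KDR was at 0 FPKM in 5 of 6 libraries and 0.01 in the other. Of 6 immune markers 4 were tested, with sums of 138 to 162 CPM in oeALKBH5 and 146 to 150 CPM in control, nearly all of it CD68. Among these MARCO fell (log2 fold change -0.84, edgeR adjusted p = 0.00146), and CD68, CD14 and PTPRC were not called. Of 6 cholangiocyte markers, EPCAM and KRT19 fell and SOX9 and SPP1 rose, with sums of 328 to 358 CPM in oeALKBH5 and 410 to 412 CPM in control. The calls in these marker lists stand beside 22% of all genes tested called lower and 20.8% called higher. The part of these markers in the results was not tested.

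Most carrier mRNAs were lower in oeALKBH5 cells, and 1 was higher. GC, AHSG, AFP, ALB, RBP4, TTR and SERPINA6 fell, from 2.31-fold for GC to 1.22-fold for SERPINA6, SERPINA7 rose 1.27-fold, and AFM and FETUB were listed at under 1 FPKM in every library and were not called. All 10 passed the filter on low counts, 7 of 10 were called lower and 1 of 10 higher (edgeR's quasi-likelihood test, Benjamini-Hochberg adjusted p under 0.05 over 14168 genes). Of all genes tested 42.8% were called, 22% lower and 20.8% higher. The median log2 fold change was -0.45 over the 10 genes and 0.01 over all genes. The groups' CPM values did not overlap for those same 8 genes, 7 with oeALKBH5 lower and 1 higher, against 27% and 25.8% of all genes. The counts of 7 and 1 were the same in all 15 alternatives tried.

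**Figure D1:**
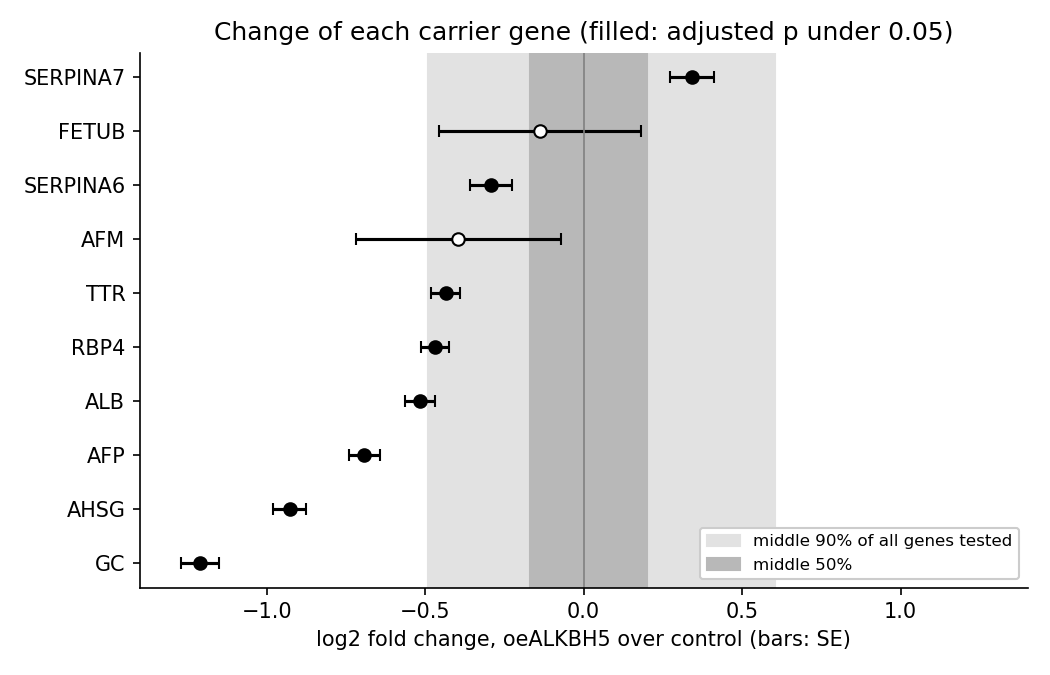
Log2 fold change of each carrier gene, oeALKBH5 over control, with its standard error, where filled points have an edgeR adjusted p under 0.05. Grey bands hold the middle 50% and 90% of the 14168 genes tested, and GC, AHSG, AFP and ALB lie below the wider band.

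Levels can be set side by side between genes only per transcript length, in FPKM, the unit scaled for transcript length and library depth. In control cells AFP led with 4200.5 ± 73.8 FPKM, ahead of ALB at 3398 ± 72.4, RBP4 at 1189 ± 30.2, TTR at 699 ± 16.4, AHSG at 271 ± 8.15 and GC at 189 ± 5.83 (the authors' FPKM summed over transcripts, SD, n = 3). SERPINA6 at 19.6 ± 0.393 and SERPINA7 at 9.83 ± 0.577 FPKM followed far below, and AFM and FETUB stood at 0.487 ± 0.0404 and 0.467 ± 0.0577 FPKM. Neighbours in this order did not overlap between their 3 control libraries, except AFM and FETUB. In oeALKBH5 cells the order of the first 8 genes was the same, but AFP (2745 ± 178 FPKM) and ALB (2509 ± 145 FPKM) overlapped, and so did FETUB and AFM.

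**Figure D2:**
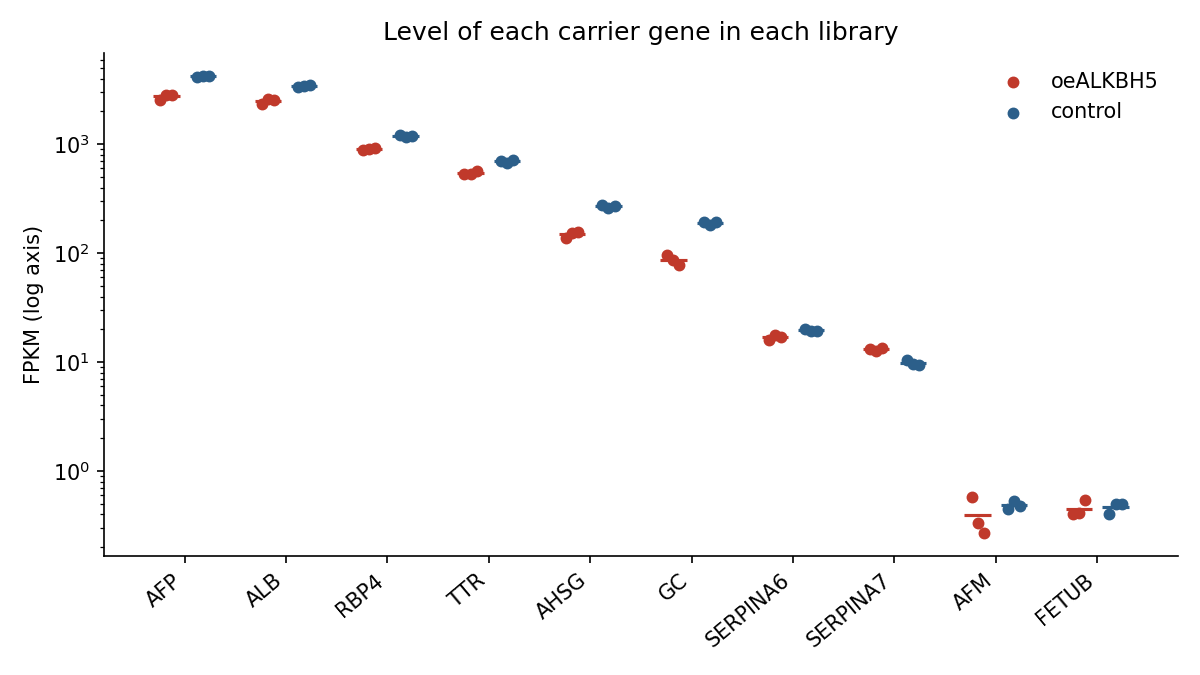
FPKM of the 10 carrier genes in each library on a log axis, with oeALKBH5 libraries in red left of control libraries in blue and a line at each group's mean. The points of 8 genes separate by group, and those of AFM and FETUB mix below 1 FPKM.

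AFP and ALB, the most abundant of the 10 by FPKM, both fell. ALB had 5097, 5650 and 5638 CPM in oeALKBH5 libraries, against 7700, 7758 and 7984 CPM in control libraries. Every oeALKBH5 library lay below every control library. Means were 5462 ± 316 CPM for oeALKBH5 and 7814 ± 150 CPM for control cells (SD, n = 3 each). ALB thus fell by 0.52 on the log2 scale (SE 0.0477, edgeR adjusted p = 4.93e-08).

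AFP, the fetal albumin relative and serum marker of liver cancer, had 5871, 6527 and 6661 CPM in oeALKBH5 libraries, against 10126, 10310 and 10366 CPM in control libraries. The groups were far apart, with oeALKBH5 replicate 1 the lowest. AFP fell by 0.69 on the log2 scale (SE 0.0492, edgeR adjusted p = 1.15e-09), to 6353 ± 422 CPM in oeALKBH5, against 10267 ± 126 CPM in control (SD, n = 3 each). AFP and ALB together made up 88.0% to 89.1% of the 10 genes' counts in oeALKBH5 and 88.3% to 89.0% in control. The 10 genes took 1.28% to 1.42% of all counts in oeALKBH5 libraries and 1.95% to 2.01% in control libraries.

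GC changed most. The carrier of vitamin D metabolites had 151, 137 and 124 CPM in oeALKBH5 libraries, against 327, 305 and 324 CPM in control libraries. All control libraries lay far above all oeALKBH5 libraries. Its log2 fold change was -1.21 (SE 0.0602, edgeR adjusted p = 9.14e-11), and 0.515% of genes tested had a lower one. Among oeALKBH5 libraries, replicate 1 was highest for GC although it was lowest for ALB and AFP.

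AFM had 17, 12 and 9 estimated counts in oeALKBH5 libraries, against 15, 19 and 15 in control libraries. The groups overlapped, and a difference was not detectable at this depth (log2 fold change -0.40, SE 0.323, edgeR adjusted p = 0.34).

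The fall was uneven between ALB, its neighbour AFP and the more distant GC, as seen in ratios within a library, which no scaling between libraries can move. The log2 ratio of AFP to ALB counts was 0.20, 0.21 and 0.24 in oeALKBH5 libraries, against 0.40, 0.41 and 0.38 in control libraries. In FPKM, AFP was 1.09 ± 0.0152 times ALB in oeALKBH5 and 1.24 ± 0.0144 times in control (SD, n = 3 each). For GC over ALB the log2 ratio was -5.07, -5.36 and -5.51 in oeALKBH5, against -4.56, -4.67 and -4.62 in control. Both ratios were lower in every oeALKBH5 library, by 0.18 and 0.70 on average (two-sided exact permutation p = 0.1 for each, the smallest value that 3 against 3 libraries can give, unadjusted over 6 ratios computed). AFM over ALB overlapped between the groups (two-sided exact permutation p = 0.8).

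TTR and RBP4, which circulate as a complex, fell by nearly the same amount. TTR had 295, 295 and 314 CPM in oeALKBH5 libraries, against 414, 394 and 414 CPM in control libraries. RBP4 had 786, 783 and 822 CPM in oeALKBH5 libraries, against 1131, 1064 and 1113 CPM in control libraries. Neither gene's groups overlapped. The log2 fold changes were -0.44 for TTR (SE 0.0456, edgeR adjusted p = 2.85e-07) and -0.47 for RBP4 (SE 0.0443, adjusted p = 7.15e-08). The log2 ratio of TTR to RBP4 counts was -1.41, -1.41 and -1.39 in oeALKBH5 and -1.45, -1.43 and -1.43 in control, a mean difference of 0.03 (two-sided exact permutation p = 0.1, again the smallest possible). RBP4 overlaps FFAR4 on the other strand, which held 1.37 CPM in oeALKBH5 and 0.888 CPM in control on average.

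The fetuins stood far apart in level. AHSG had 206, 227 and 236 CPM in oeALKBH5 libraries, against 439, 408 and 425 CPM in control libraries. The groups were well separated, and the fetuin-A mRNA was 1.90-fold lower (log2 fold change -0.93, SE 0.0517, edgeR adjusted p = 2.83e-11). FETUB, its neighbour on chromosome 3, had 11, 12 and 16 estimated counts in oeALKBH5 libraries, against 12, 15 and 15 in control libraries. The groups overlapped, and a difference was not detectable at this depth (log2 fold change -0.14, SE 0.32, edgeR adjusted p = 0.757). An antisense gene of the annotation overlaps both, and no source used here says whether reads were counted by strand. The log2 ratio of AHSG to FETUB counts was 8.38 ± 0.207 in oeALKBH5 and 9.16 ± 0.219 in control (SD, n = 3 each, two-sided exact permutation p = 0.1, the smallest possible).

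The hormone-carrying serpins moved in opposite directions. SERPINA6, the cortisol carrier, had 22.3, 24.3 and 23.8 CPM in oeALKBH5 libraries, against 29.6, 28.2 and 28.5 CPM in control libraries. SERPINA7, the main thyroxine carrier, had 30.4, 28.8 and 31.2 CPM in oeALKBH5 libraries, against 25.5, 23.1 and 22.7 CPM in control libraries. For neither gene did the groups overlap, with oeALKBH5 lower for SERPINA6 and higher for SERPINA7. The log2 fold changes were -0.29 for SERPINA6 (SE 0.0667, edgeR adjusted p = 0.00147) and 0.34 for SERPINA7 (SE 0.0691, adjusted p = 5.06e-04). The log2 ratio of SERPINA7 to SERPINA6 counts was 0.45, 0.25 and 0.39 in oeALKBH5 libraries, against -0.21, -0.29 and -0.33 in control libraries. Its sign thus differed between the groups, by 0.64 on average (two-sided exact permutation p = 0.1, the smallest possible). By length the order stayed: SERPINA7 was at 0.784 ± 0.0544 of the SERPINA6 FPKM in oeALKBH5 and at 0.502 ± 0.0199 in control (SD, n = 3 each).

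**Figure D3:**
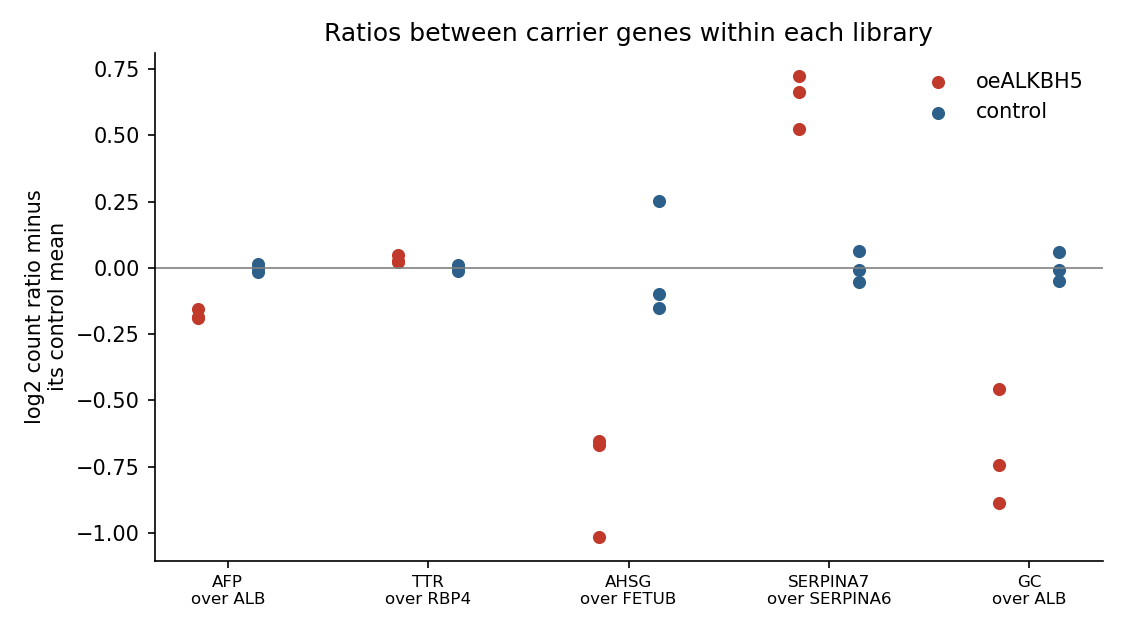
Log2 count ratio of 5 pairs of carrier genes within each library, minus the control mean of that pair, with oeALKBH5 libraries in red left of control libraries in blue. AFP over ALB, AHSG over FETUB and GC over ALB sit lower in oeALKBH5, SERPINA7 over SERPINA6 sits higher, and TTR over RBP4 stays within 0.05 of the control mean.

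The authors' FPKM values gave the same directions. For 8 of the 10 genes the values passed the filter of 1 FPKM in 3 libraries, and 7 were called lower and 1 higher by limma on log2(FPKM + 1), against 16.4% and 29.3% of the 12016 genes tested. On that scale, which understates the change of low genes, differences ran from -1.12 for GC (SE 0.0652, limma adjusted p = 8.25e-07) to 0.39 for SERPINA7 (SE 0.0571, adjusted p = 3.75e-04).

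ALB, AFP, TTR and SERPINA6 are listed with a single transcript each. GC and AHSG counts sat almost wholly on 1 transcript, with 95.6% to 98.9% of GC counts on NM_000583.4 in oeALKBH5 and 98.4% to 99.8% in control. RBP4 counts were split between NM_001323518.1 (50.7% to 54.1% in oeALKBH5, 52.1% to 54.0% in control) and NM_006744.4. Both fell, by 0.49 and 0.44 on the log2 scale (edgeR over 45502 transcripts, adjusted p = 0.0147 and 0.041). The main transcripts of ALB, AFP, GC, TTR and AHSG were also called lower, beside 0.732% of all transcripts called lower and 0.281% called higher. Each of these 7 transcripts lost its call in at least 5 of the 8 alternatives and kept its direction, and NM_006744.4 lost it in all 8. The single SERPINA6 transcript, NM_001756.4, was not called (log2 fold change -0.29, SE 0.076, edgeR adjusted p = 0.192), nor in any of the 8 alternatives.

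SERPINA7 counts were divided among 3 transcripts. NM_000354.6 took 32.3%, 42.4% and 49.0% in oeALKBH5 libraries, against 23.7%, 36.2% and 20.0% in control libraries. The shares overlapped. In counts it was at 9.92, 12.4 and 15.4 CPM in oeALKBH5, against 6.11, 8.42 and 4.60 CPM in control, without overlap but without passing the test (log2 fold change 0.98, SE 0.31, edgeR adjusted p = 0.299). XM_005262180.4, which took the largest share in every library but oeALKBH5 replicate 3 (47.2%), overlapped between the groups in CPM (log2 fold change 0.05, SE 0.186). Such shares rest on a model that divides reads between similar transcripts, whose error is not in the test.

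Genes around the albumin cluster were read in the same fit. The loci next to ALB on its other side, ANKRD17 and COX18, were at 0.21 (SE 0.0576, edgeR adjusted p = 0.00727) and -0.04 (SE 0.0794, adjusted p = 0.72). Beyond AFM, RASSF6 was at -0.77 (SE 0.137, adjusted p = 1.44e-04) and the chemokine gene CXCL8 at 0.45 (SE 0.0991, adjusted p = 0.00576). Between GC and the cluster, NPFFR2 was at 0.15 (SE 0.335, adjusted p = 0.747) and ADAMTS3 at 0.48 (SE 0.15, adjusted p = 0.0144). Of the 8 neighbours shown 1 fell and 3 rose, beside 22% and 20.8% of all genes tested. Of the 4 carriers on this chromosome 3 fell. The window was chosen after the values of the carriers were known.

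**Figure D4:**
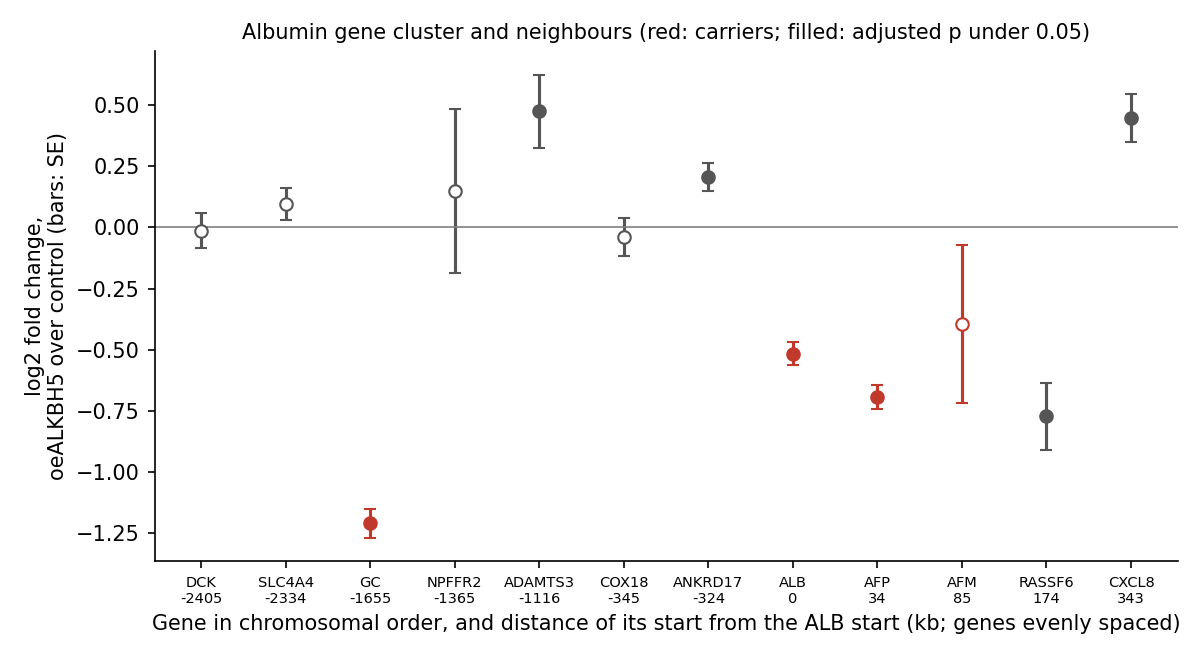
Log2 fold change with its standard error for GC, the albumin cluster (red) and the measured genes between and beside them (grey), in chromosomal order with the distance of each gene start from the ALB start in kb and filled points for an edgeR adjusted p under 0.05. GC, ALB, AFP and RASSF6 lie below -0.5, and of the genes above 0 only ADAMTS3, ANKRD17 and CXCL8 are filled.

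Of 12 other plasma carriers listed, 8 fell and 1 rose, beside 22% and 20.8% of all genes tested. The median log2 fold change of the list was -0.43. With library size alone 8 fell and 2 rose, and 7 fell with DESeq2 or without oeALKBH5 replicate 3, control replicate 1 or control replicate 2. APOM, which carries sphingosine phosphate on lipoproteins, was at -0.80 (SE 0.0663), the lipocalin precursor AMBP at -0.57 (SE 0.0476) and the selenium carrier SELENOP at -0.56 (SE 0.0472), with edgeR adjusted p up to 1.27e-08. The ferroxidase CP rose by 0.60 (SE 0.0511, adjusted p = 1.63e-08). Haemopexin (HPX) was at 0.09, ORM1 at -0.04 and ORM2 at 0.01, and these 3 were not called; ORM1 and ORM2 are near-identical and uncertain singly.

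Among family relatives, 8 of 10 clade A serpins and type 3 cystatins were tested. Of these 4 fell and 0 rose (median -0.20), beside 22% and 20.8% of all genes tested. Antitrypsin (SERPINA1) fell to 2507 ± 138 CPM in oeALKBH5, against 4539 ± 140 CPM in control cells (SD, n = 3 each, log2 fold change -0.86, SE 0.0481, edgeR adjusted p = 3.05e-11). KNG1, the kininogen gene, fell by 0.60 (SE 0.0455) and SERPINA4 by 0.40 (SE 0.0811). SERPINA10 also fell, by 0.27, and 4 others were not called, among them SERPINA3 (0.06) and HRG (0.18). With library size alone 3 fell, and 5 fell with the replicate block or without oeALKBH5 replicate 3.

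Genes that take up or process the cargo fell more often than they rose. Of 21 listed 17 were tested, 10 fell and 2 rose (median -0.30), beside 22% and 20.8% of all genes tested. The deiodinase DIO1, which activates thyroxine, held 1.16 ± 0.134 CPM in oeALKBH5 cells, against 4.27 ± 0.393 CPM in control cells (SD, n = 3 each), and fell by 1.87 on the log2 scale (SE 0.191, edgeR adjusted p = 1.94e-07). LRP2, the megalin receptor that takes up several carriers in kidney, fell by 0.80 (SE 0.0672), as did RDH10, a retinol dehydrogenase (SE 0.0687). FCGRT, whose receptor recycles albumin, rose by 0.31 (SE 0.0505, adjusted p = 5.03e-05), and CYP27B1, the vitamin D 1-alpha-hydroxylase, by 0.56 (SE 0.219, adjusted p = 0.0463). The CYP27B1 call was lost in 6 of 15 alternatives: without a filter, with DESeq2, and without oeALKBH5 replicate 1 or 2 or control replicate 1 or 3 (adjusted p 0.0245 to 0.177 over the 15). In those 6 the list held 1 rise, and with library size alone it held 3, while 10 fell in every alternative.

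Factors known to act on ALB and AFP did not move one way. Of 19 tested, 7 rose and 5 fell, beside 20.8% and 22% of all genes tested, with a median of 0.11 for the list. The split moved with the setting: 10 rose and 3 fell with library size alone, 9 rose and 7 fell with the replicate block, and 7 rose and 7 fell without oeALKBH5 replicate 1 (median 0.05). Without oeALKBH5 replicate 2, 5 rose and 4 fell. ZHX2, a repressor of Afp in mouse liver, held 73.9 ± 3.05 CPM in oeALKBH5 cells, against 51.4 ± 1.57 CPM in control cells (SD, n = 3 each, log2 fold change 0.52, SE 0.0535, edgeR adjusted p = 1.94e-07). HLF rose by 0.54 (SE 0.0871) and NR2F2 by 0.25 (SE 0.0498). HNF4G fell by 0.52 (SE 0.0884) and CEBPB by 0.23 (SE 0.0577). HNF4A was called at -0.12 (SE 0.042, edgeR adjusted p = 0.0298), a call lost in 6 of 15 alternatives: upper quartile scaling, library size alone, and without oeALKBH5 replicate 2 or any 1 control library (adjusted p 0.0139 to 0.453 over the 15).

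The genes whose log2 CPM was most like that of ALB over the 6 libraries were TMT1A, FGG and GLO1 (Pearson r 0.9998, 0.9996 and 0.9991 among 10005 genes with a mean of at least 10 CPM). For AFP they were SELENOP, GSTA1 and RDH10 (r 0.9998, 0.9996 and 0.9993). With 2 groups of 3 libraries that differ, such values mostly record the group difference and are a description.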

How the data were processed

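The submitters' processing notes name RSEM 1.2.8, HISAT2 2.1.0 and Bowtie2 2.2.5, with GRCh38.p13 as the build. No source used here gives their roles, filters or strandedness. The authors deposited estimated counts (expected counts) per RefSeq transcript, not scaled between libraries, and FPKM values for the same 80668 transcripts. Transcripts were added up within each of 18030 Entrez genes, of which 17881 matched a symbol, and counts were rounded.

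Genes were tested with edgeR 4.0.16 in R 4.3.3 (TMM, filter at a minimum count of 10, robust quasi-likelihood, group as the single term, two-sided, Benjamini-Hochberg, threshold 0.05); standard errors were taken as |log2 fold change| divided by the root of the F statistic. The deposited FPKM values were tested with limma 3.58.1 on log2(FPKM + 1). DESeq2 1.42.0 was an alternative. Ratios used exact permutation tests. No 2 libraries agreed within counting noise (chi-square per degree of freedom at least 1.66). Scripts were tested on simulated data.

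The carriers and the other gene lists were chosen with earlier results of these data known. All carriers were named; of the other lists, up to 3 members higher and 3 lower by p, and further ones were named after their values were seen; a few members the rule takes are not reported here.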

Additional observations from a re-analysis of the deposited data

How the results depend on the processing

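The 7 falls and the 1 rise among the carrier genes kept their direction and their side of the threshold under all 15 alternatives: upper quartile scaling, DESeq2 size factors, no scaling beyond library size, a filter at 1 CPM or none, DESeq2, limma-voom, the replicate block, ALKBH5 left out and each library left out in turn. Log2 fold changes ran from -1.28 to -1.13 for GC, -0.97 to -0.85 for AHSG, -0.73 to -0.61 for AFP, -0.54 to -0.44 for ALB and 0.31 to 0.42 for SERPINA7. Library size alone moved the median of all genes to 0.09 and the split over all genes to 4266 higher and 2047 lower, against 2948 and 3114. Samples with the same replicate number correlated by 0.15, 0.03 and 0.12 in their deviations from the group means. Those with different numbers correlated by -0.20 to 0.13. The labels state no pairing and the numbers were not taken as pairs, though these values do not settle whether they are. With the replicate block 6469 genes were called, against 6062, and all 8 carrier calls were kept.

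On log2(FPKM + 1) the difference of AFP moved to -0.30 and that of ALB to -0.20 under quantile normalization, with the calls kept. Transcript calls were lost with the block for ALB, AFP, GC, TTR, RBP4 and AHSG (adjusted p 0.138 to 0.193) and with most single libraries left out. The signs of 4 uncalled transcripts turned with 1 library left out, over ranges of -0.96 to 0.030 for AFM NM_001133.2, -1.20 to 0.0073 for FETUB NM_001308077.4, -0.079 to 0.19 for SERPINA7 XM_005262180.4 and -1.01 to 0.49 for SERPINA7 XM_006724683.2. The log2 ratio of AFM to ALB ran from -0.21 to 0.32. At 9 to 19 counts a library, AFM and FETUB are limited by depth.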

Other observations

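By estimated counts AFP ranked 2 to 3 among all genes in oeALKBH5 libraries and 1 in each control library, while ALB ranked 5 in each oeALKBH5 library and 3 to 4 in control libraries. By FPKM, AFP ranked 6 to 10 in oeALKBH5 and 4 to 5 in control, and ALB 10 to 12 in oeALKBH5 and 7 to 9 in control. In oeALKBH5 replicate 1 all 11 counts of FETUB were assigned to a transcript (NM_001375592.2) that held 0 in the other libraries.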
